A study of Mus musculus with 6 samples.

Results

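Genes of DNA damage signalling and repair were described in mammary basal cells, the outer epithelial layer of the gland, from mice lacking Trp53 and Cdkn2a and from wild type mice. The set was a fixed list of 35 genes. Each gene was taken through the array annotation, from rows with exactly 1 gene symbol and, where a gene had several rows, from the row of highest mean over the 6 arrays. In this way 33 of the 35 genes were measured, among 22180 genes in all. Fanca shared its row with another gene and Xrcc2 had no row with its symbol alone, so neither was analysed here.

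The knockout group was Trp53-/-, p16ink4a-/- and p19arf-/-, the last 2 being products of Cdkn2a, and the other group was wild type. Each group had 3 arrays, each labelled as a biological replicate from an adult virgin female aged 8 to 14 weeks, with no other allele or treatment named. The glands were digested, cells of blood and endothelium were depleted, and the basal fraction was collected on a flow sorter. Values are log2 expression after RMA, a method that corrects background, puts arrays on a common scale and summarizes the probes of a gene, so a difference of 1 is a 2-fold difference. Errors of fold changes are moderated standard errors (SE). Levels of different genes on this scale depend on their probes and are not set against each other.

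Cells answer DNA damage through kinases that sense it and halt the cell cycle, and through repair pathways suited to each kind of lesion. Homologous recombination copies an intact sister strand and is used in S and G2 phase, end joining seals broken ends throughout the cycle, and excision and mismatch repair replace damaged or mispaired bases. p53 is a target of the damage kinases and activates some repair genes. Cdkn2a products act on p53 and on the RB pathway, whose E2F factors drive many genes of S phase, including repair genes. In the mammary gland these genes are known above all through BRCA1 and BRCA2, whose inherited loss in humans predisposes to breast cancer.

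The arrays were alike in scale, with medians over all rows between 5.22 and 5.39 and correlations between arrays, across rows, from 0.961 to 0.978. Of 14 basal markers, 13 were measured, and their mean lay between 10.3 and 10.7 on the knockout arrays and 10.3 to 10.6 on the wild type arrays. Krt14 read 13.27, 13.27 and 13.21 on knockout replicates 1, 2 and 3, and 13.29, 13.51 and 13.30 on wild type replicates 1, 2 and 3, all of which were slightly higher. It was the only 1 of the 13 whose groups did not overlap, and 4.05% of all genes lay apart in that direction. Of the 13, 5 were higher on average in knockout cells, among them Trp63 by 0.35 and Myh11 by 0.23, and 8 were lower. Luminal markers, 16 of 18 measured, were also present, at means of 7.40 to 7.88 on the knockout arrays and 7.35 to 8.55 on the wild type arrays. Their means were highest on wild type replicates 2 and 3. Of the 16, 15 were lower on average in knockout cells, as 51.7% of all genes were, with a median log2 fold change of -0.37. An unadjusted limma p under 0.05 was found for 1 of the 16, with the knockout lower, as for 1.71% of all genes. None of the 16 had an adjusted limma p under 0.05. The fibroblast list had a mean of 6.98 to 7.11 on the knockout arrays and 6.45 to 6.78 on the wild type arrays. Of its 8 genes, 7 were higher on average in knockout cells and 1 was lower. An unadjusted limma p under 0.05 was found for 3 of the 8, with the knockout higher, as for 1.61% of all genes. None had an adjusted limma p under 0.05, and the fibroblast level was not used as a covariate. The immune list had means of 5.36 to 5.55 and the endothelial list of 5.41 to 5.58 on the knockout arrays, against 5.26 to 5.43 and 5.33 to 5.55 on the wild type arrays. Trp53 was not analysed here, and where the Cdkn2a probes lie relative to the deleted part is not given in the sources used here. Cdkn2a, an intended target of the knockout, read 6.25, 6.31 and 6.39 on the knockout arrays and 6.42, 5.84 and 6.48 on the wild type arrays, and the groups overlapped, which does not check the labels.

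No damage signalling or repair gene passed the test. With limma, 0 of 33 genes had an adjusted p under 0.05 across all 22180 genes, where 0% of all genes passed. Every one of the 33 had an adjusted p of 1.0, and 0 had an unadjusted p under 0.05, where 1.61% of all genes did so with the knockout higher and 1.71% with the knockout lower. With replicate as a block the members at that level were again 0, although the number over all genes was 1112 in place of 736. The log2 fold changes, knockout minus wild type, lay between -0.34 for Ddb1 and 0.35 for Chek1. Of the 33 genes, 17 were above 0 and 16 below, with a median of 0.0019, against a median of -0.0067 over all genes.

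The intervals limit how large a difference could have gone unseen. For 32 of the 33 genes the 95% interval of the log2 fold change lay between -1 and 1, that is within a 2-fold difference either way. This held for 95.2% of all genes. Chek1 was the exception, with an interval from -0.73 to 1.43. For 14 of the 33, or 42.4%, the interval lay within -0.5 and 0.5, as for 45.8% of all genes. In simulated arrays of the same spread, log2 changes of 0.5 were recovered in 1.2% of cases and changes of 1 in 48% of cases. Small changes were thus not detectable with 3 arrays per genotype. Those runs held 200 changed genes of mixed size and noise drawn separately for each gene and array. Shifts shared by many genes of an array were not simulated, and here 0% of all genes passed. The shares may therefore overstate recovery in these data.

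**Figure D1:**
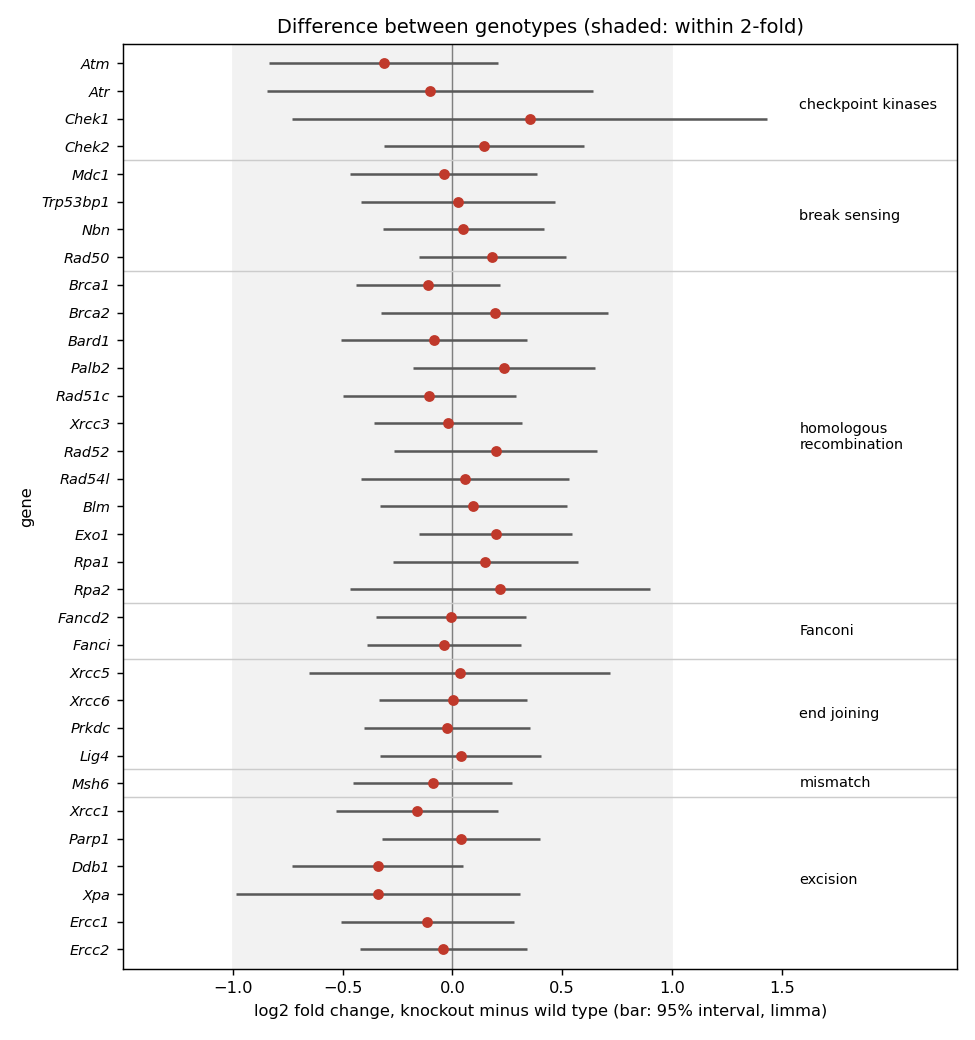
Log2 fold change, knockout minus wild type, of 33 damage signalling and repair genes grouped by pathway, with the 95% interval from limma as a bar. Every interval includes 0, and only that of Chek1 reaches outside the shaded 2-fold range.

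Groups without overlap were about as frequent among the 33 genes as among all genes. In 1 gene, Rad50, the lowest knockout array exceeded the highest wild type array, as it did for 3.63% of all genes. In 1 gene, Ddb1, the highest knockout array was under the lowest wild type array, as for 4.05% of all genes.

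Of the 4 checkpoint kinases, Chek1 and Atr had the widest ranges over the arrays of all 33 genes, and none of the 4 passed. Atm, the kinase activated by DNA breaks, read 6.50, 5.96 and 6.18 on knockout replicates 1, 2 and 3 and 6.07, 6.73 and 6.77 on the wild type arrays. Wild type replicates 2 and 3 were the highest of the 6, while wild type replicate 1 fell among the knockout values. Its log2 fold change was -0.31 (SE 0.231, limma adjusted p = 1.0), and -0.54 without wild type replicate 1, where the unadjusted limma p was 0.0266 and the adjusted p 0.559. The 2 wild type arrays that stood high in Atm were also the 2 with the highest luminal marker means, 8.55 and 8.29. The knockout arrays ran the other way, with luminal means of 7.73, 7.88 and 7.40. Knockout replicate 2, the highest of them in luminal markers, was the lowest in Atm. The log2 fold change of Atm was -0.12 once the luminal level entered as a covariate. The part of luminal cells in Atm was not tested. In such bulk samples fewer cells of a type and less RNA per cell cannot be told apart.

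Atr, which answers stalled replication forks, read 5.61, 5.50 and 6.13 on the knockout arrays and 5.16, 6.57 and 5.81 on the wild type arrays. The wild type arrays held both the lowest and the highest value, with all knockout values between them. The log2 fold change of Atr was -0.10 (SE 0.329). A second row of Atr gave -0.14.

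Chek1, the kinase downstream of Atr that restrains entry into mitosis, had the widest range of the 33 genes, 2.04 log2 units. It read 7.07, 5.46 and 6.01 on the knockout arrays and 5.71, 5.03 and 6.74 on the wild type arrays. The highest value was on knockout replicate 1 and the next on wild type replicate 3, and the groups overlapped. The log2 fold change of 0.35 had a standard error of 0.477 and turned to -0.09 without knockout replicate 1 and to -0.05 without wild type replicate 2.

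Chek2, the kinase downstream of Atm, read 4.51, 5.00 and 4.34 on the knockout arrays and 4.29, 4.76 and 4.37 on the wild type arrays. In both genotypes replicate 2 was the highest. Chek2 had a log2 fold change of 0.14 (SE 0.20).

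Genes that sense breaks and recruit repair factors had log2 fold changes between -0.04 and 0.18, 3 of 4 above 0. Rad50, a subunit of the complex that binds and trims broken ends, read 6.75, 6.75 and 6.64 on the knockout arrays and 6.45, 6.59 and 6.55 on the wild type arrays. Each knockout value thus exceeded each wild type value, by little, with a log2 fold change of 0.18 (SE 0.148, limma adjusted p = 1.0). Nbn, its partner in the same complex, read 8.32, 8.35 and 8.17 on the knockout arrays and 8.09, 8.36 and 8.23 on the wild type arrays, with a log2 fold change of 0.05. The groups of Nbn overlapped. Mdc1, a scaffold at marked chromatin, averaged 6.86 ± 0.175 in knockout cells and 6.90 ± 0.253 in wild type cells (SD, n = 3 each). Trp53bp1, which protects ends from trimming, averaged 7.12 ± 0.147 in knockout cells and 7.09 ± 0.30 in wild type cells.

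**Figure D2:**
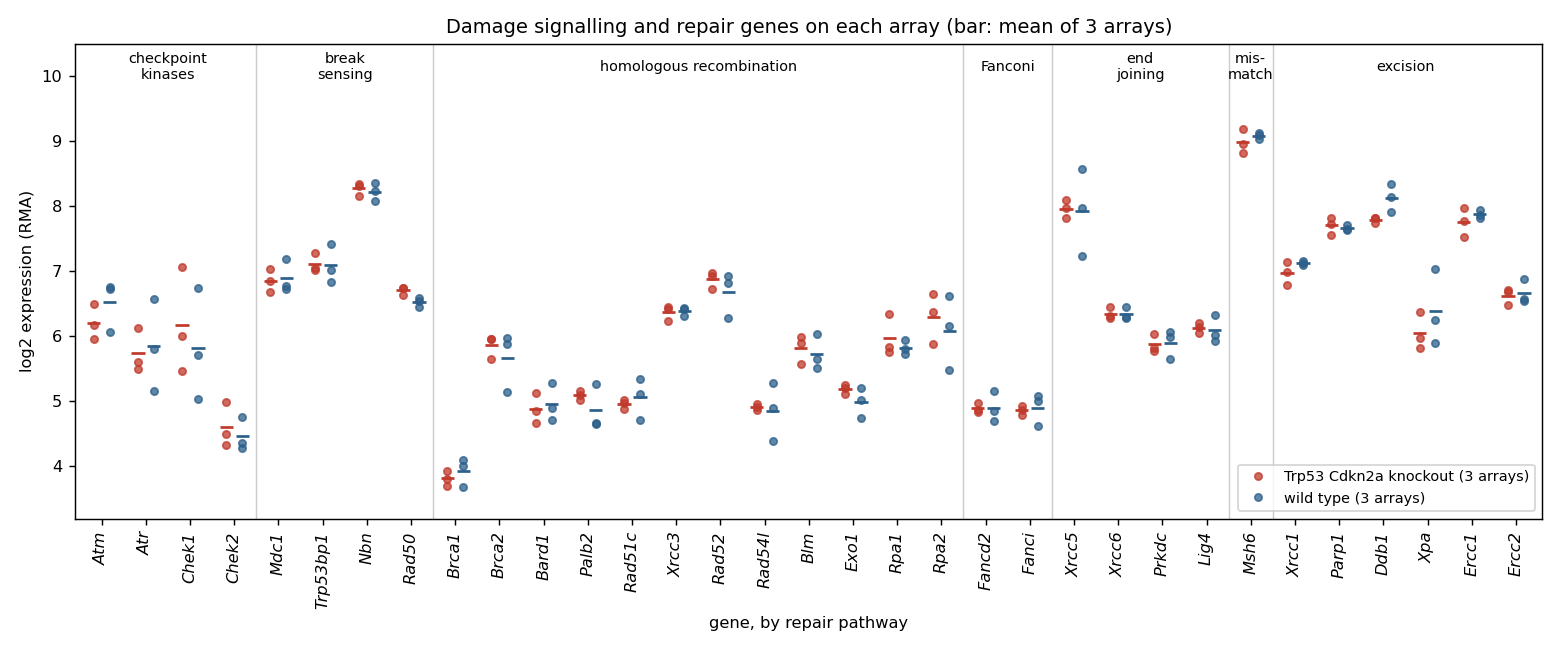
Log2 expression of each of the 33 genes on the 3 knockout arrays (left of each pair) and the 3 wild type arrays (right), with short bars for the group means. The groups overlap for all genes but Rad50 and Ddb1, and Chek1, Atr, Xrcc5, Xpa and Rpa2 spread over more than 1 log2 unit.

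Of the 12 measured genes of homologous recombination, 8 had a log2 fold change above 0 and 4 below, between -0.11 and 0.23, with a median of 0.12. The median over all genes was -0.0067. None passed, and in none did the groups separate. The median was 0.038 without knockout replicate 2 or without wild type replicate 1, and 0.063 without wild type replicate 2. It was 0.15 without knockout replicate 3, and 0.17 with genes of mean under 5 left out, where 8 genes entered.

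Exo1, a nuclease that trims broken ends and also acts in mismatch repair, read 5.11, 5.20 and 5.26 on the knockout arrays and 5.21, 4.74 and 5.03 on the wild type arrays. Wild type replicate 2 was the lowest. Exo1 had a log2 fold change of 0.20 (SE 0.153), which became 0.072 when wild type replicate 2 was dropped and 0.30 when wild type replicate 1 was, and 0.074 with the luminal covariate. Palb2, which joins Brca1 and Brca2, read 5.11, 5.02 and 5.17 on the knockout arrays and 5.27, 4.66 and 4.66 on the wild type arrays. Wild type replicate 1 was the highest of the 6 and the other 2 wild type arrays were the lowest. The log2 fold change of Palb2 was 0.23 (SE 0.183). It was 0.032 with the luminal covariate and 0.13 when either wild type replicate 2 or replicate 3 was dropped. Without wild type replicate 1 it was 0.44, with an unadjusted limma p of 0.0132 and an adjusted p of 0.494, the smallest adjusted p of any of the 33 genes in any setting tried.

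Brca1, which directs breaks toward recombination, read 3.934, 3.704 and 3.814 on the knockout arrays and 4.004, 3.683 and 4.100 on the wild type arrays. It is 1 of 7 among the 33 genes with a mean under 5, the level used here to mark dim genes, as 33.5% of all genes were. Its log2 fold change was -0.11 (SE 0.144), and -0.024 with the mitosis covariate. Dropping 1 wild type array gave -0.074 for replicate 1, -0.23 for replicate 2 and -0.026 for replicate 3. Dropping 1 knockout array gave -0.17 for replicate 1 and -0.055 for replicate 2. Brca2, which loads the recombinase onto resected DNA, read 5.97, 5.65 and 5.96 on the knockout arrays and 5.15, 5.98 and 5.88 on the wild type arrays. Wild type replicate 1 was well below the other 5 arrays, and the log2 fold change was 0.19 with it and -0.07 without it. It was 0.41 with the luminal level as a covariate. Brca1, Brca2, Xrcc5 and Rpa2 are given array by array because of their values or renown, outside the rule for the others.

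Bard1, the partner of Brca1, averaged 4.88 ± 0.239 in knockout cells and 4.97 ± 0.291 in wild type cells (SD, n = 3 each, as for all such means here). Rad51c, one of the paralogs that help the recombinase, averaged 4.96 ± 0.069 in knockout cells and 5.06 ± 0.322 in wild type cells. Xrcc3, another paralog, averaged 6.37 ± 0.111 in knockout cells and 6.39 ± 0.063 in wild type cells, and spanned only 0.205 log2 units over the 6 arrays. Rad52, which anneals single strands, averaged 6.88 ± 0.124 in knockout cells and 6.68 ± 0.352 in wild type cells. With the luminal level as a covariate its log2 fold change was 0.40 in place of 0.20, at an unadjusted limma p of 0.0391 and an adjusted p of 1.0.

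Rad54l, a motor protein that aids strand invasion, averaged 4.92 ± 0.051 in knockout cells and 4.86 ± 0.445 in wild type cells. Blm, a helicase that dissolves joined strands, averaged 5.82 ± 0.221 in knockout cells and 5.73 ± 0.272 in wild type cells. Rpa1, the large subunit of the protein that coats single strands, averaged 5.98 ± 0.320 in knockout cells and 5.83 ± 0.112 in wild type cells. Its 2 rows gave log2 fold changes of 0.15 and 0.04.

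Rpa2, the middle subunit of the same protein, read 6.38, 6.65 and 5.88 on the knockout arrays and 6.15, 6.63 and 5.48 on the wild type arrays. In both genotypes replicate 2 was the highest and replicate 3 the lowest, an order that 1 of the 33 genes and 4.46% of all genes showed. The log2 fold change was 0.22 (SE 0.301), and -0.09 without wild type replicate 3 or with the mitosis covariate. Same-numbered arrays of Rpa2 differed by 0.23, 0.02 and 0.40. The list of dissociation stress genes, which respond to tissue digestion, followed that order too, at 10.03, 10.63 and 9.50 on the knockout arrays and 9.72, 10.10 and 9.29 on the wild type arrays. All 16 of these stress genes were higher on average in knockout cells, as 48.3% of all genes were. Their median log2 fold change was 0.36, and none passed. Basal marker means shared the order as well, at 10.4, 10.7 and 10.3 on the knockout arrays and 10.4, 10.6 and 10.3 on the wild type arrays. The part of either list in Rpa2 was not tested.

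The 2 measured genes of the Fanconi pathway, which unhooks crosslinks between strands, form its central pair. Fancd2 read 4.87, 4.97 and 4.84 on the knockout arrays and 5.16, 4.70 and 4.85 on the wild type arrays, and Fanci read 4.79, 4.87 and 4.94 on the knockout arrays and 5.08, 4.62 and 5.01 on the wild type arrays. Both were highest on wild type replicate 1 and lowest on wild type replicate 2, with the knockout arrays between. Their log2 fold changes were -0.0048 and -0.04, with SE of 0.151 and 0.155. Both had means under 5.

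End joining genes had log2 fold changes between -0.02 and 0.04 with 3 of 4 above 0. Lig4, the ligase that seals the ends, read 6.15, 6.05 and 6.20 on the knockout arrays and 6.33, 5.93 and 6.02 on the wild type arrays. Prkdc, the catalytic subunit of the DNA-dependent kinase, read 5.83, 6.03 and 5.78 on the knockout arrays and 5.65, 5.99 and 6.07 on the wild type arrays. For both genes the wild type arrays held the lowest and the highest value. Xrcc6, a Ku subunit that clamps onto ends, had the smallest range of the 33 genes, 0.177 log2 units, and averaged 6.35 ± 0.091 in knockout cells and 6.35 ± 0.096 in wild type cells. Xrcc5, its Ku partner, read 8.09, 7.82 and 7.98 on the knockout arrays and 7.24, 8.58 and 7.97 on the wild type arrays. Its log2 fold change was 0.03 (SE 0.303). The wild type arrays with its lowest and highest value, replicates 1 and 2, were also those with the lowest and highest luminal marker mean, 7.35 and 8.55. Among the knockout arrays Xrcc5 was lowest on replicate 2, which was the highest of them in luminal markers, at 7.88. With the luminal covariate the log2 fold change of Xrcc5 was 0.37, close to the 0.36 found without wild type replicate 2, and without wild type replicate 1 it was -0.31. None of these passed.

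Msh6, the mismatch sensor, read 9.19, 8.83 and 8.97 on the knockout arrays and 9.10, 9.13 and 9.03 on the wild type arrays. The wild type values lay within the knockout range, and the log2 fold change was -0.09 (SE 0.160). Dropping knockout replicate 1 gave -0.19, dropping knockout replicate 2 gave -0.0050, and array weights gave -0.0036.

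Among the 6 excision repair genes, 5 had a log2 fold change below 0 and 1 above, with a median of -0.14, against -0.0067 over all genes, of which 51.7% were below 0. None passed. The median was -0.23 without knockout replicate 2, -0.04 without knockout replicate 3, -0.09 without wild type replicate 2 and -0.07 after the luminal covariate. Ddb1, part of the ligase that recognizes lesions of ultraviolet light in chromatin, read 7.82, 7.82 and 7.74 on the knockout arrays and 7.91, 8.14 and 8.35 on the wild type arrays. The knockout arrays lay close together and below every wild type array, by the least at wild type replicate 1. Knockout cells averaged 7.79 ± 0.042 and wild type cells 8.13 ± 0.219, a ratio of 0.790 of knockout to wild type. The log2 fold change was -0.34 (SE 0.172), with a 95% interval from -0.73 to 0.05 (limma adjusted p = 1.0). It was -0.23 without wild type replicate 3, -0.24 with the luminal level as a covariate, -0.43 with array weights and -0.45 without wild type replicate 1. In these last 2 settings the unadjusted limma p was 0.0196 and 0.0292, and the adjusted p 0.516 and 0.569.

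Xpa, which verifies damage in nucleotide excision repair, read 5.97, 6.38 and 5.83 on the knockout arrays and 5.90, 7.04 and 6.25 on the wild type arrays. Its highest value was on wild type replicate 2, the array with the highest luminal marker mean. The log2 fold change was -0.34 (SE 0.286), and it was -0.02 without wild type replicate 2 and -0.01 after the luminal covariate. Xrcc1, the scaffold of base excision and strand break repair, averaged 6.97 ± 0.179 in knockout cells and 7.13 ± 0.035 in wild type cells. Parp1, which marks breaks with poly(ADP-ribose), averaged 7.71 ± 0.130 in knockout cells and 7.67 ± 0.044 in wild type cells. Ercc1, a subunit of the nuclease that cuts beside a lesion, averaged 7.76 ± 0.221 in knockout cells and 7.88 ± 0.068 in wild type cells. Ercc2, a helicase that opens the strands around it, averaged 6.63 ± 0.122 in knockout cells and 6.67 ± 0.188 in wild type cells.

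The spread among replicates was smaller in knockout than in wild type cells for 26 of the 33 genes, or 78.8%, and for 61.5% of all genes. The median range over the 6 arrays was 0.524 log2 units for the 33 genes and 0.555 for all genes. A range over 1 was found for 5 of the 33, or 15.2%, and for 11.4% of all genes.

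**Figure D3:**
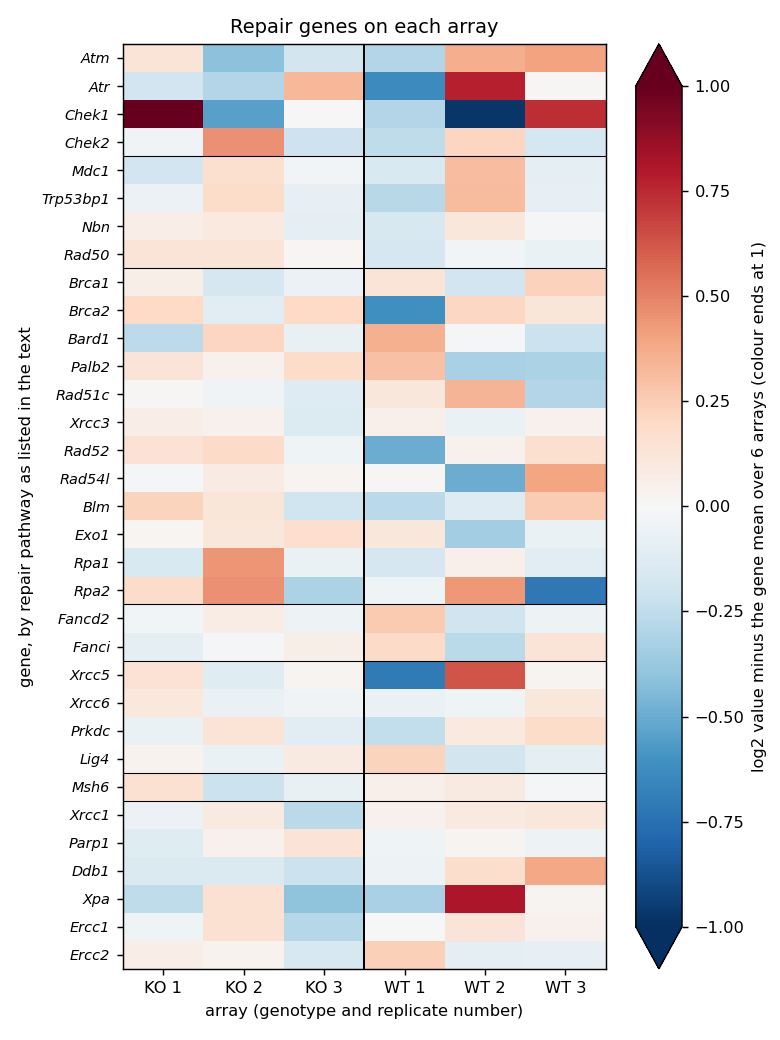
Each gene's log2 value on each array minus its mean over the 6 arrays, with knockout arrays on the left and the colour scale ending at 1 log2 unit. Chek1 has the strongest colours, on knockout replicate 1 and wild type replicate 2, and Atr, Xrcc5 and Xpa are strongly red on wild type replicate 2.

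Repair genes linked to S phase were then set beside proliferation genes on the same arrays. The textbook list of S-phase-linked members had 12 genes, 11 of them measured. Their mean was 5.71, 5.58 and 5.55 on knockout replicates 1, 2 and 3 and 5.57, 5.41 and 5.65 on the wild type arrays, and 6 of the 11 had a log2 fold change above 0. Mitosis genes, 24 of 25 measured, had means of 5.13, 5.34 and 5.52 on the knockout arrays and 5.62, 5.03 and 6.32 on the wild type arrays. Array means thus spanned 1.29 log2 units for mitosis genes and 0.308 for the S-phase-linked repair genes, of which 5 of 11 had means under 5. Replication genes, 22 of 24 measured, had means of 6.29, 6.38 and 6.29 on the knockout arrays and 6.30, 6.33 and 6.63 on the wild type arrays. Their span of 0.34 was close to that of the S-phase-linked repair genes. Of the mitosis genes 22 of 24 were lower on average in knockout cells, with a median log2 fold change of -0.26. Of the replication genes 16 of 22 were lower, with a median of -0.13, where 51.7% of all genes were lower. No gene of either list passed.

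Wild type replicate 3 was the highest array in the mitosis and replication lists, and wild type replicate 2 the lowest in the mitosis list. Wild type replicate 2 was also the lowest in the S-phase-linked repair mean, but knockout replicate 1 was the highest there, the array on which Chek1 stood out. With the mitosis level as a covariate 0 of the 33 genes passed, and the log2 fold change of Chek1 was 0.68. The median of the S-phase-linked genes was 0.06. It was -0.07 without wild type replicate 2, -0.0097 with the luminal covariate, -0.0013 with array weights and 0.19 with dim genes left out, so its sign is not settled. The other 22 genes had a median of -0.0085. In bulk RNA these levels mix the number of cycling cells with the RNA of each cell.

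**Figure D4:**
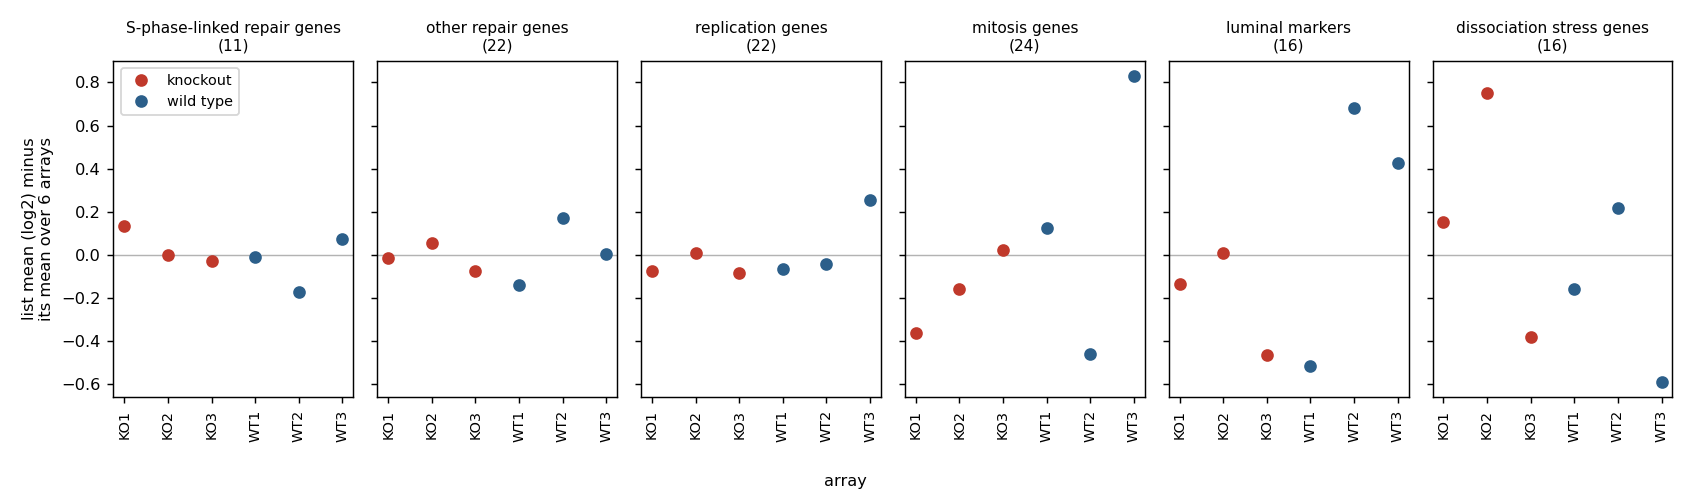
Mean log2 level of 6 gene lists on each array, minus the list's mean over the 6 arrays, with knockout arrays left of wild type arrays in each panel. Mitosis genes, luminal markers and dissociation stress genes span 1.29, 1.198 and 1.34 log2 units, while replication genes span 0.34 and both sets of repair genes 0.308 and 0.311.

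Promoter sequences of the repair genes were read from RefSeq (build GRCm38.p6), in windows from 250 bases before to 50 bases after each annotated start. Windows were at hand for 29 of the 35 genes, 32 windows in all. They were searched on both strands for the E2F site in 4 forms, TTTCCCGC, TTTGGCGC, TTTCGCGC and TTTGCCGC. E2F letters were found in 8 of 32 windows, or 25.0%, against 2.26% of all 32851 windows in the table and 2.85% of those of protein-coding genes. Replication genes had them in 9 of 20 windows and mitosis genes in 1 of 22. The cell cycle homology element that marks many mitosis genes, TTTGAA, was found in 1 of 32 repair windows, or 3.12%, against 17 of 22 mitosis windows and 17.9% of all windows. The CCAAT box was found in 18 of 32 repair windows, or 56.2%, against 75.0% of replication windows, 81.8% of mitosis windows and 37.4% of all windows. The p53 decamer, searched after the other motifs, was found in 1 of the 32 windows, that of Fanca, or 3.12%, and in 8.36% of all windows. A match shows letters, not binding, and a p53 element may also lie outside these windows.

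The E2F letters of the repair genes are shown with 20 bases on either side, on the strand of the gene, in capitals, because they are the letters more frequent in repair and replication windows than in mitosis windows or in all windows. Of the 7 genes, Bard1, Brca2 and Msh6 are on the S-phase-linked list and the other 4 are not. The log2 fold changes of the 7 lay between -0.11 for Rad51c and 0.19 for Brca2.
Bard1, chr1:71103154-71103201, minus strand: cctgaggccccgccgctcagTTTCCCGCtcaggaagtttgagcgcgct
Brca2, chr5:150522433-150522480, plus strand: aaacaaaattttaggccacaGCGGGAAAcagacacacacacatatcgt
Chek2, chr5:110839811-110839858, plus strand: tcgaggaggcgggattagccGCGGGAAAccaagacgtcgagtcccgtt
Mdc1, chr17:35841462-35841509, plus strand: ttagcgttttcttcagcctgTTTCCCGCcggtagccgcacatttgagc
Msh6, chr17:87975045-87975092, plus strand: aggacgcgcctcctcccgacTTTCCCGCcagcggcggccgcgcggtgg
Rad51c, chr11:87404468-87404515, minus strand: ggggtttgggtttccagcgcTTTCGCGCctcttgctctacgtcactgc
Rad51c, chr11:87404932-87404979, minus strand: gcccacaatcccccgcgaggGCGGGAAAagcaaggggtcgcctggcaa
Xrcc6, chr15:82016303-82016350, plus strand: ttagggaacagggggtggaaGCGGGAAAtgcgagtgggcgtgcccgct

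The 2 lines of Rad51c belong to its 2 annotated starts. In 7 of the 8 lines the letters are TTTCCCGC or its reverse complement GCGGGAAA, and the first Rad51c line has TTTCGCGC. Ddb1, the gene whose knockout arrays lay below every wild type array, had 0 matches to the E2F letters, the cell cycle element, the CCAAT box or the p53 decamer in its window. The same held for 9 of the 29 genes with windows, Ddb1 among them. By window it held for 31.2% of the repair windows and 46.5% of all windows, so it does not set Ddb1 apart. The window is shown whole because Ddb1 is the gene of lowest p among the 33.
Ddb1, chr19:10605347-10605646, plus strand: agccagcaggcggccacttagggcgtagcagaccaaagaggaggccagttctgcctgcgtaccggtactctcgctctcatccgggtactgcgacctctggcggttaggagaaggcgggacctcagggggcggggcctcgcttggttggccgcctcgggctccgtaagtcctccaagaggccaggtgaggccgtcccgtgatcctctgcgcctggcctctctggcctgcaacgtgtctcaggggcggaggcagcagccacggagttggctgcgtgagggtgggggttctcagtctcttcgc

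**Figure D5:**
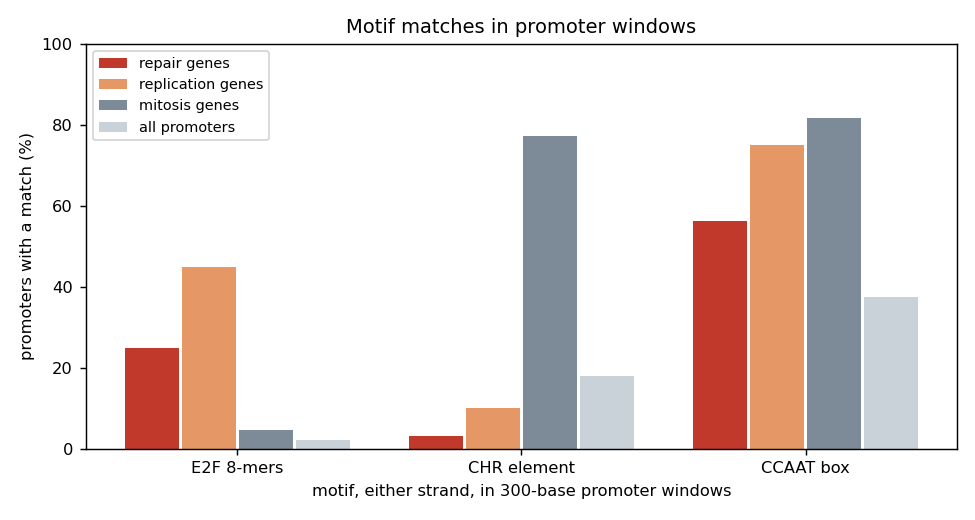
Share of 300-base promoter windows with a match to the E2F forms, the cell cycle homology element (CHR) or the CCAAT box, for repair, replication and mitosis genes and for all windows of the table. Repair genes have E2F letters in 25.0% and the CHR element in 3.12% of windows, and mitosis genes in 4.55% and 77.3%.

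Other genes of the same pathways were read from lists beside the 33. Of 138 listed, 123 were measured, 48 with a log2 fold change above 0 and 75 below, with a median of -0.04. None passed in either direction. At an unadjusted limma p under 0.05 there was 1 above and 1 below, where 1.61% and 1.71% of all genes were. The knockout arrays stood entirely above the wild type arrays for 2 of the 123 and entirely below for 5, where 3.63% and 4.05% of all genes did. Usp28, a deubiquitinase linked to damage and p53 signalling, was the gene above with the unadjusted p. It read 5.67, 5.95 and 6.03 on the knockout arrays and 5.64, 5.46 and 5.26 on the wild type arrays, a log2 fold change of 0.43 (SE 0.165, limma adjusted p = 1.0). Poli, a polymerase that copies past lesions, was the gene below. It read 5.237, 5.570 and 4.683 on the knockout arrays and 5.592, 5.933 and 5.602 on the wild type arrays, with a log2 fold change of -0.55 (SE 0.226, limma adjusted p = 1.0).

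By pathway, the other checkpoint genes had 7 of 15 above 0, with Atrip, the partner of Atr, at 0.27 and the phosphatase Ppm1d at 0.23. The other break-sensing genes had 5 of 13 above 0, with Rif1, which protects ends from trimming, at 0.37. Recombination genes had 7 of 20 above 0, with Sfr1 at 0.24 and Mms22l at -0.40. In the Fanconi list 7 of 15 were above 0, and Fancg and Fancc of the core complex were at -0.34 and -0.24, with every knockout array below every wild type array. Groups lay apart in that direction for 3 of the 15, Fancg and Fancc among them, and for 4.05% of all genes. End joining genes had 5 of 9 above 0, with Xrcc4, the partner of Lig4, at 0.26 and Nhej1 at -0.21. Mismatch repair genes had 3 of 6 above 0, with the clamp Pcna at 0.24 and the ligase Lig1 at -0.27. Excision genes had 8 of 30 above 0 and 22 below, with a median of -0.06, and Mnat1 and Gtf2h3, subunits of the transcription and repair factor TFIIH, at -0.31 and -0.41. Tolerance and reversal genes had 6 of 15 above 0, with Alkbh2, which reverses base alkylation, at 0.51. These values are log2 fold changes and none passed.

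A list of known p53 targets held repair genes such as Xpc and Polh and also targets of cell cycle arrest, feedback and stress, among them Cdkn1a, Mdm2, Ppm1d, Tigar, Sesn1 and Sesn2. Of its 16 genes 12 were measured, 9 of them with a log2 fold change above 0, as 48.3% of all genes were. The median was 0.06, against -0.0067 over all genes, and none passed. The list mean was 7.36, 7.59 and 7.26 on knockout replicates 1, 2 and 3 and 7.39, 7.33 and 7.24 on the wild type arrays. Knockout replicate 2 was the highest array for 6 of the 12, as for 14.7% of all genes. Sesn1, a p53 target of stress signalling, read 4.35, 5.01 and 4.53 on the knockout arrays and 4.49, 4.18 and 3.82 on the wild type arrays. Its log2 fold change was 0.47 (SE 0.216, limma adjusted p = 1.0), and the groups overlapped. Fancc, also on this list, is the gene given above at -0.24.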

How the data were processed

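RNA of sorted basal cells was amplified and hybridized to 1 whole-transcript array per replicate, per the labels' protocols. Values are deposited on the log2 scale, 1 per probe set. They were made with RMA and Transcriptome Analysis Console 4.0, per the submitters' processing notes, and the genome build is not given in the sources used here. RMA pulls arrays toward a common distribution, so a change shared by most genes would not show. Of 41345 rows, 23521 had 1 gene symbol, 1814 had several and 16010 had none. The row of highest mean was kept per gene, which left 22180 genes.

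The test was limma 3.58.1 under R 4.3.3 (lmFit and eBayes, with a prior that follows the mean). It was two-sided, adjusted by Benjamini-Hochberg over all genes, at a threshold of 0.05. The fit was tested on simulated arrays, in 10 runs with 200 changed genes of mixed size among 22180, which gave 5.9 false calls per run. With 3 arrays a side, an exact permutation p has a floor of 0.1, so none was used. Precision is limited by how many arrays there are. The labels call the replicates biological, and whether they shared a sort or a hybridization is not given in the sources used here.

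The genes and lists were chosen with earlier results of these data known. Arrays are shown one by one for genes whose groups do not overlap, for the checkpoint kinases and for the 2 genes of smallest p in each pathway. From each further list the 2 genes of smallest p are named. List entries not measured under 1 symbol were left out, and 3 were found through an older symbol. Replicate numbers come from the sample titles, which do not say what they share. For arrays of the same number, r across genes of the deviations from their group means was 0.121, 0.25 and 0.127. Each is over 0.1, but neither the titles nor these values establish a pairing. The main fit took the arrays as unpaired, and a fit with a replicate block is given where it moves a count. Wild type replicate 1 also correlated at 0.13 with knockout replicate 3. Alternatives changed the prior, weights, normalization, centring, dim filter, rows, pairing, covariates and threshold, and left out each array. Figures were drawn with matplotlib 3.10.9.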

Additional observations from a re-analysis of the deposited data

How the results depend on the processing

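In each of the settings tried, 0 of the 33 repair genes passed, and so did 0 of all genes, with the replicate block included. The smallest adjusted p of a repair gene under any setting was 0.494. The replicate block changed no call. Genes of the whole table at an unadjusted limma p under 0.05 numbered 736, against 447 with dim genes left out, 1112 with the replicate block, 1788 without wild type replicate 1 and 1970 with array weights. The signs of 10 genes held in every setting, but their size did not: without 1 array it ranged from -0.23 to -0.026 for Brca1, 0.13 to 0.44 for Palb2, 0.072 to 0.30 for Exo1, -0.19 to -0.0050 for Msh6, -0.24 to -0.067 for Xrcc1, -0.22 to -0.0011 for Ercc1, -0.59 to -0.017 for Xpa, -0.54 to -0.19 for Atm, -0.45 to -0.23 for Ddb1 and 0.14 to 0.22 for Rad50. The other 23 had values whose sign turned when 1 array was left out, and for 14 in another setting too. The cause was not tested.

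Without 1 array the log2 fold change ranged from -0.45 to 0.26 for Atr, -0.094 to 0.81 for Chek1, -0.049 to 0.29 for Chek2, -0.13 to 0.11 for Mdc1, -0.10 to 0.19 for Trp53bp1 and -0.019 to 0.12 for Nbn. It ranged from -0.069 to 0.34 for Brca2, -0.21 to 0.075 for Bard1, -0.28 to 0.039 for Rad51c, -0.058 to 0.045 for Xrcc3, -0.0033 to 0.33 for Rad52, -0.18 to 0.27 for Rad54l, -0.016 to 0.25 for Blm, -0.033 to 0.26 for Rpa1 and -0.086 to 0.49 for Rpa2. The others were -0.11 to 0.12 for Fancd2, -0.18 to 0.051 for Fanci, -0.31 to 0.36 for Xrcc5, -0.050 to 0.057 for Xrcc6, -0.15 to 0.062 for Prkdc, -0.044 to 0.16 for Lig4, -0.019 to 0.11 for Parp1 and -0.10 to 0.067 for Ercc2. Array weights turned Rad51c to 0.082, Rad54l to -0.17, Blm to -0.0013, Fancd2 to 0.0015, Xrcc6 to -0.020 and Ercc2 to 0.021. Median centring turned Xrcc6 to -0.0039. With the mitosis level as a covariate Trp53bp1 was -0.062, Rpa2 -0.087, Fancd2 0.024, Fanci 0.062 and Xrcc5 -0.10. With the luminal level as a covariate Atr was 0.18, Mdc1 0.075, Rad54l -0.0097, Prkdc 0.11 and Lig4 -0.092.

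The recombination median ranged from 0.038 to 0.15 without 1 array and was 0.053 with the luminal level as a covariate. The S-phase-linked median ranged from -0.067 to 0.075 without 1 array and was 0.19 with dim genes left out, where fewer genes entered, -0.0097 with the luminal covariate and -0.0013 with array weights. The medians of the other pathways moved by less than the spread between arrays.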
